A study of Mus musculus with 12 samples.

Results

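The SLAM family comprises cell surface receptors of lymphocytes and the small adaptors that bind their tails. The 10 genes described here are the receptor genes *Slamf1*, *Slamf6*, *Slamf7*, *Slamf8*, *Slamf9*, *Cd48*, *Cd84* and *Ly9* and the adaptor genes *Sh2d1a* (SAP) and *Sh2d1b1* (EAT-2), out of 41444 genes in the deposited table. The family was chosen by the large difference of *Slamf6* between the groups compared below, so the values of its members are a description of these samples and carry no test. Murine pre-B cells of *Ctnnb1* fl/fl bone marrow were transformed with *BCR-ABL1* after growth with IL7, which was then removed, and carried the ERT2 vector, an estrogen receptor domain without Cre that leaves both floxed β-catenin alleles in place. All samples received the tamoxifen metabolite 4-OHT for 2 days at 1 µM. The LY2090314 group (n = 3) also received 40 nM of this GSK3β inhibitor for 1 day according to the sample labels, whereas the control group (n = 3) did not. A legend of the study gives a shorter exposure. Inhibition of GSK3β prevents the phosphorylation that marks β-catenin for degradation. The series has 12 samples in 4 groups, and the Cre-ERT2 groups are not analysed here.

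Values are rlog values, log2 read counts that the authors scaled for library size and drew toward the mean of a gene where reads are few, so that differences of genes with low values are understated. Sequencing depth is unknown because the table holds no read counts. Libraries are named by the numbers in the table, 1, 2 and 3 for control cells and 14 A, 14 B and 15 for LY2090314. Libraries 14 A and 14 B share a number. Over all genes tested, the values of these libraries differed with an SD of 0.186, compared with 0.253 for either of them with library 15 and 0.185 to 0.239 within the control group. Between the groups it was at least 0.581. The β-catenin target genes *Axin2* and *Nkd1* rose by 1.67 and 5.44 on the log2 scale (adjusted p = 1.5e-05 and 1.6e-08, limma), which checks the treatment labels. Of 8 pre-B markers, all were measured in every library, with a summed level of 16.63 to 16.65 in control cells and 16.15 to 16.30 with LY2090314, and 6 of them fell, beside 25.3% of all genes tested. They include *Pax5* (-1.54), *Rag1* (-1.93) and *Igll1* (-1.42), whereas *Cd79a* (0.23, adjusted p = 0.053) and *Cd24a* (-0.07, adjusted p = 0.4) did not pass.

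SLAM receptors are immunoglobulin-superfamily proteins, most of which bind the same receptor on a neighboring cell, and CD48 and CD244 bind each other. Most have a cytoplasmic tail with immunoreceptor tyrosine-based switch motifs. When the tyrosine of such a motif is phosphorylated, SAP and EAT-2 dock there through their SH2 domains, SAP recruits the kinase Fyn, and in the absence of adaptors the phosphatases SHP-1, SHP-2 and SHIP-1 can bind instead. The family is best known for T cell and B cell cooperation in germinal centers, for natural killer cell responses and, for CD48 and SLAMF1, as surface markers used to separate blood stem cells from progenitors.

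The adaptor docking sites are visible in the coding sequences, which are shown because the receptors differ in how many they have. The switch motif spans 18 bases, shown in capitals with 6 bases on either side, and codons are counted from the start codon of the longest complete coding sequence in GENCODE vM21 (build GRCm38). Only motifs after the most hydrophobic stretch of 20 codons beyond codon 40 were counted, which marks the membrane end of the tail. Such a motif was found in 721 of 21441 protein-coding genes (3.36%). Of the 4 tested receptors of the family whose levels did not overlap between the groups, 3 carried these motifs. So did *Slamf1* and *Ly9*, whose levels overlapped. Of all genes tested, 58.6% did not overlap, and no link between motif and difference is read from this count.
Slamf6 codons 293 to 298: gggaacACTGTGTATGCACAAGTCactcgt
Slamf6 codons 317 to 322: tccatgACAATTTACTCCATAGTTaatcat
Slamf7 codons 300 to 305: ccaaacACATTTTATTCCACTGTGcagatc
Cd84 codons 263 to 268: aagaaaACAGTATATGCTGTAGTTtcaaga
Cd84 codons 298 to 303: gtgaccACCATTTATTCCTCAGTGcagctt
The receptor *Cd244a*, which is not among the 10 genes but belongs to the same family and binds CD48, carried 4 motifs, the most of the 9 receptors searched.
Cd244a codons 264 to 269: cctttgACAATATATGAATATGTCaaggac
Cd244a codons 323 to 328: agaggcACCATGTACTCTATGATAcagtgc
Cd244a codons 342 to 347: aaatgtACAGTATATTCAGTAGTCcagcct
Cd244a codons 367 to 372: agttgtACCGTGTACGAGGAGGTTggaaac
*Slamf1* and *Ly9*, whose group means differed by less than 0.05 on the log2 scale, also carried 2 motifs each.
Slamf1 codons 286 to 291: agccttACTATTTATGCCCAAGTAcagaaa
Slamf1 codons 333 to 338: cccaccACAGTTTATGCCAGTGTGacactg
Ly9 codons 585 to 590: gcaatcACTCCATATGATAAAGTGgatggg
Ly9 codons 623 to 628: tcaaatACAATCTACTGCTCTGTGcagaag
No motif was found in *Slamf8*, *Slamf9* or *Cd48*. The coding sequence of *Cd48* ends 1 codon after its hydrophobic stretch, which belongs to a protein held in the membrane by a lipid anchor. Of the 2 tested receptors without a motif, *Cd48* did not overlap between the groups and *Slamf9* did, so receptors with and without a docking motif were among those that differed. *Slamf8* was too low to test.

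**Figure D1:**
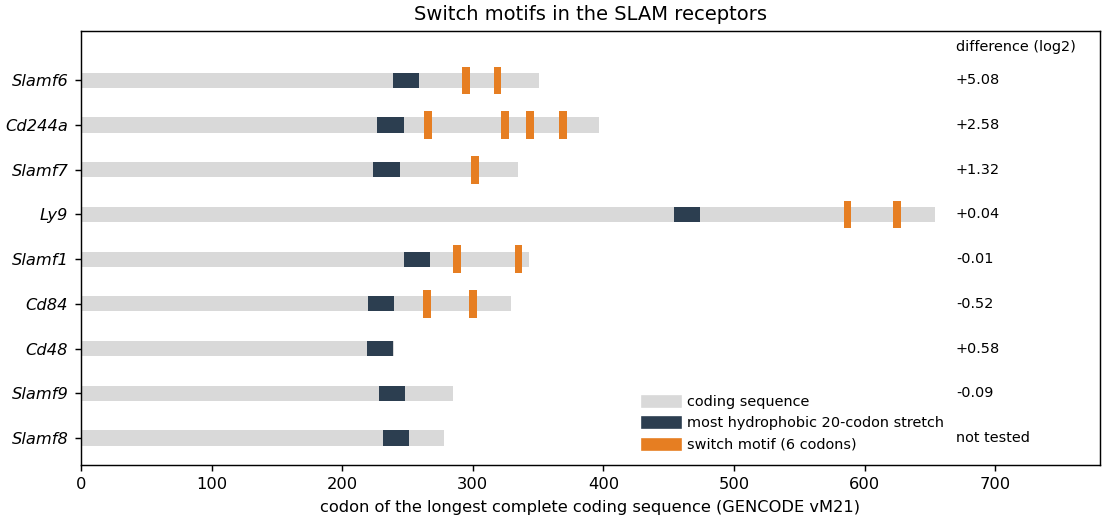
Coding sequences of the 8 receptor genes and of Cd244a, drawn to scale in codons on the x axis (gray), with the most hydrophobic stretch of 20 codons (dark blue) and the switch motifs (orange). Numbers on the right give the difference of mean rlog values, LY2090314 minus control, and show that Slamf6 (5.08) and Cd84 (-0.52), each with 2 motifs, differed in opposite directions.

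Of the 10 genes, 7 had a mean rlog value of at least 3 and entered the fit across all 11536 genes, whereas *Slamf8*, *Sh2d1a* and *Sh2d1b1* lay below this limit. Among the 7 receptors, 3 were higher and 1 was lower at an adjusted p under 0.05, and 3 did not pass. The same contrast chose the family, and 50.1% of all genes tested passed, 24.8% higher and 25.3% lower, so nothing is read from this count. The same 3 higher and 1 lower receptors had no overlap between the groups, against 29.1% and 29.5% of all genes and 58.6% in either direction. The median log2 difference of the 7 receptors was 0.04, with a range from -0.52 to 5.08, and that of all genes tested was 0.01. The means of 707 genes (6.13%) were at least 1 apart on the log2 scale, and 485 of these (4.2% of all) were higher with LY2090314.

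*Slamf6* (ENSMUSG00000015314, Ly108), a receptor that binds itself on neighboring lymphocytes, had rlog values of 6.70, 6.79 and 6.74 in control libraries and of 11.83, 11.80 and 11.82 in LY2090314 libraries. The control cells thus held a low but measurable level and the 3 treated libraries lay far above them with hardly any spread. The means, 6.74 ± 0.048 and 11.82 ± 0.015 (SD, n = 3 each), were 5.08 apart in log2 units (standard error 0.054, limma), which is 33.7-fold on the linear scale. Counted from the largest rise, *Slamf6* ranked number 3 of 11536 genes. It was 5.07 when libraries 14 A and 14 B were averaged and counted as 1 sample.

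*Slamf7* (ENSMUSG00000038179, CS1), a receptor of natural killer cells, plasma cells and activated B cells, had values of 10.43, 10.50 and 10.38 in control libraries and of 11.76, 11.73 and 11.78 in LY2090314 libraries. All treated libraries lay above all control libraries. The difference of the means, 11.75 ± 0.024 against 10.44 ± 0.061 (SD, n = 3 each), was 1.32 on the log2 scale (standard error 0.048), or 2.49-fold. It ranked number 309 counted from the largest rise. Plasma cell genes moved in the same libraries: of 5 markers, *Prdm1* (4.46), *Xbp1* (1.39), *Irf4* (1.41) and *Jchain* (0.31) rose and *Sdc1* (-1.09) fell, and their summed level was 13.21 to 13.24 in control cells and 14.64 to 14.70 with LY2090314. The rise of *Jchain* did not pass without library 2, 3, 14 B or 15 (0.25 to 0.31). The part of these genes in the difference of *Slamf7* was not tested.

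*Cd48* (ENSMUSG00000015355), the lipid-anchored ligand of CD244 and CD2, had values of 9.63, 9.64 and 9.67 in control libraries and of 10.12, 10.19 and 10.38 in LY2090314 libraries. The treated libraries were all higher, with library 15 above the pair that shares a number. The log2 difference was 0.58 (standard error 0.072), or 1.5-fold, between means of 9.65 ± 0.021 and 10.23 ± 0.13 (SD, n = 3 each), and it ranged from 0.51 without library 15 to 0.64 without library 14 A.

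*Cd84* (ENSMUSG00000038147), a self-binding receptor of B cells and platelets, was the only receptor that was lower. Its values were 10.03, 10.00 and 10.03 in control libraries and 9.58, 9.47 and 9.46 in LY2090314 libraries, without overlap. The mean went from 10.02 ± 0.016 to 9.50 ± 0.067 (SD, n = 3 each), which is a log2 difference of -0.52 (standard error 0.054) and a 1.43-fold lower level. In bulk RNA, a lower level per cell and a smaller share of cells that hold the transcript cannot be told apart.

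The 3 other receptors overlapped between the groups. *Ly9* (ENSMUSG00000004707, CD229), a self-binding receptor of T cells and B cells, had values of 10.67, 10.72 and 10.67 in control libraries and of 10.63, 10.73 and 10.80 with LY2090314, a log2 difference of 0.04 (standard error 0.056). *Slamf1* (ENSMUSG00000015316, CD150), a self-binding receptor that also marks blood stem cells, had values of 4.54, 4.81 and 5.0 and of 4.74, 4.71 and 4.87, a difference of -0.01 (standard error 0.13). *Slamf9* (ENSMUSG00000026548), a receptor of myeloid cells with a short tail, had values of 5.75, 5.77 and 5.96 and of 5.71, 5.71 and 5.78, a difference of -0.09 (standard error 0.093). The spread of *Slamf1* among control libraries was larger than its difference between the groups, and the highest control library of *Slamf9* lay above all treated libraries.

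*Slamf8* (ENSMUSG00000053318), a receptor of macrophages, had an rlog value of -0.88 in every library except 14 B, where it was -0.86. In rlog data such values are found for genes with next to no reads. *Sh2d1a* (ENSMUSG00000005696) was listed at 0 in all 6 libraries. *Sh2d1b1* (ENSMUSG00000102418) had values of 0.50, 0.51 and 0.48 in control libraries and of 0.65, 0.59 and 0.70 with LY2090314, and its similar neighbor *Sh2d1b2* was at -2.12 throughout. The 3 adaptor genes that dock on switch motifs were thus at or near the bottom of the scale in both groups. Reads of *Sh2d1b1* and *Sh2d1b2* could be split between these similar genes.

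**Figure D2:**
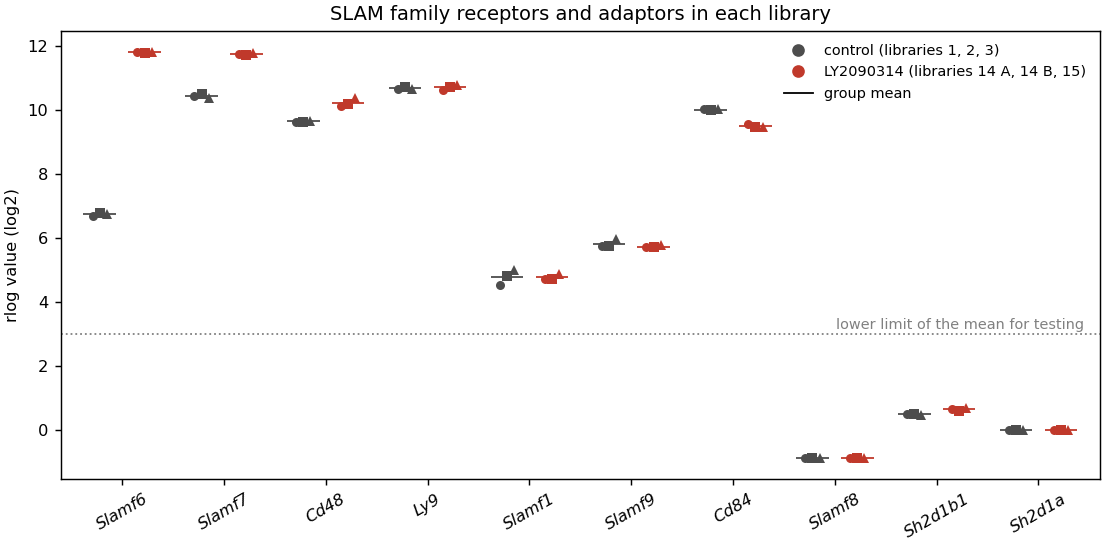
The rlog value (log2, y axis) of each of the 10 genes in the 3 control libraries (gray) and the 3 LY2090314 libraries (red), with circles, squares and triangles for libraries 1, 2, 3 and 14 A, 14 B, 15 in this order and a line at each group mean. Slamf6 went from 6.74 to 11.82, Slamf7 and Cd48 also lay higher, Cd84 lay lower, and 3 genes lay below the limit of 3 (dotted line) that was required for testing.

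Markers of cell types that are known for SLAM receptors were examined in the same libraries. Of 7 T cell markers, *Cd5* was the 1 that passed the limit of 3 and it rose (1.70, adjusted p = 3.9e-06, limma), whereas *Cd3e* and *Cd3g* were at -2.28 in every library, and the summed level was 5.30 to 5.48 in control cells and 6.93 to 7.03 with LY2090314. Of 6 natural killer cell markers, *Klrd1* rose (1.21, adjusted p = 2.7e-05, limma) and *Ncr1* and *Nkg7* were listed at 0. *Klrb1c*, below the limit and not tested, went the other way, with means of 2.24 in control cells and 2.02 with LY2090314. The sums were 4.46 to 4.61 in control cells and 5.41 to 5.53 with LY2090314. Of 6 macrophage markers, *Lyz2* rose (0.53, adjusted p = 0.0023), *Adgre1* was listed at 0, and the sums were 5.78 to 5.99 and 6.36 to 6.48. Each of these sums rested mainly on a single gene, and the other listed markers of T cells, natural killer cells and macrophages lay below the limit of 3. Of 5 granulocyte markers, *Ly6g* rose by 2.96 (sums of 3.46 to 3.53 and 6.41 to 6.51) and the 4 others were listed at 0. Of 6 stem cell markers, *Flt3*, which is also a dendritic cell marker, rose by 1.13 (sums of 5.0 to 5.06 and 5.72 to 5.98), with *Procr* and *Mecom* at 0. *Cd34*, the other stem cell marker tested, differed by 0.10 (adjusted p = 0.28, limma) and did not pass. The 4 dendritic cell markers had sums of 4.22 to 4.31 and 5.27 to 5.56, and none of the 3 platelet markers reached the limit (sums of 0.58 to 0.74 and 0.62 to 0.64). The part of these markers in the differences of the SLAM genes was not tested.

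**Figure D3:**
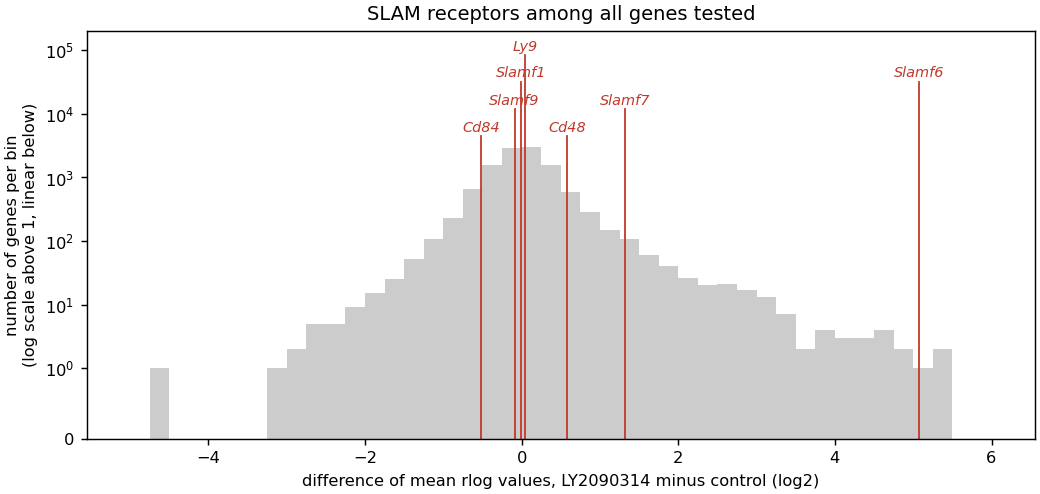
Histogram of the difference of mean rlog values, LY2090314 minus control (x axis, log2), for the 11536 genes tested, with the number of genes per bin on a y axis that is logarithmic above 1. Red lines mark the 7 receptors tested, of which Slamf6 (5.08) lies in the far right tail and Ly9 (0.04), Slamf1 (-0.01) and Slamf9 (-0.09) lie at the center.

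Genes with a pattern most like that of *Slamf6* were found by the Euclidean distance between the values of the 6 libraries after subtraction of the control mean of each gene, over 11535 other genes. The closest were *Slc16a5* (distance 0.33), a monocarboxylate transporter gene, and *Ky* (0.336), known from skeletal muscle, with log2 differences of 4.91 and 4.89. They were followed by *Pcp4* (0.64), a calmodulin regulator, *Nkd1* (0.651), a feedback inhibitor of Wnt signaling, and *Mmp15* (0.778), a membrane-bound metalloproteinase, with differences of 5.44, 5.44 and 4.64. None of them is a SLAM gene or lies on chromosome 1. With groups this tight the distance mainly follows the size of the difference, and the next SLAM receptors differed by 2.58 (*Cd244a*) and 1.32 (*Slamf7*). Another SLAM gene could thus not be close, and nothing is read from their absence.

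The partners of the receptors were described from a list of 24 genes outside the family as defined above, of which 23 were tested. Of these, 10 rose, 6 fell and 7 did not pass, against 50.1% of all genes that passed, and their median log2 difference was 0.10, with a range from -1.99 to 2.58, against 0.01 for all genes. Without library 1, 10 passed, beside 5032 of 11544 genes in all. Without library 2, 10 passed, beside 4741 of 11544. *Cd244a* (ENSMUSG00000004709), the receptor for CD48, had values of 6.20, 6.24 and 5.85 in control libraries and of 8.84, 8.67 and 8.53 with LY2090314. It rose in all treated libraries, with a log2 difference of 2.58 (adjusted p = 2.9e-06 from limma, standard error 0.13), or 5.97-fold. It ranked number 72 counted from the largest rise. The receptor and its ligand *Cd48* were thus both higher. *Cd2*, which also binds CD48, rose by 0.54 (adjusted p = 0.025), a call that was lost without library 1, 2, 14 B or 15 (0.42 to 0.56).

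Among the kinases, *Fyn*, which SAP recruits to the receptors, had values of 10.74, 10.83 and 10.84 in control libraries and of 11.34, 11.31 and 11.34 with LY2090314. It rose by 0.52 (standard error 0.047, adjusted p = 6.3e-05), and so did *Lck*, the related kinase of T cells, by 0.95 (adjusted p = 2.2e-05). *Csk*, which restrains Src family kinases, fell by 0.45 (adjusted p = 0.00066). *Lyn*, the main Src family kinase of B cells, differed by -0.14 (adjusted p = 0.097) and passed without library 3 (-0.20), and *Fgr* by 0.10 (adjusted p = 0.3). The phosphatases moved little: *Ptpn6* (SHP-1) rose by 0.19 (adjusted p = 0.019), *Ptpn11* (SHP-2) fell by 0.22 (adjusted p = 0.025) and *Inpp5d* (SHIP-1) fell by 0.16 (adjusted p = 0.033). These calls were lost for *Ptpn6* without library 1 (0.15), 2, 14 A or 14 B (0.18 each), for *Ptpn11* without library 1 (-0.21) or 2 (-0.19), and for *Inpp5d* without library 1 (-0.17), 2, 3, 14 A (-0.16 each) or 14 B (-0.14).

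Of 9 relay genes that carry the signal further, 5 rose and 2 fell, beside 50.1% of all genes that passed in either direction. *Prkcq*, the protein kinase C that acts downstream of SAP and Fyn in T cells, had values of 8.73, 8.62 and 8.75 in control libraries and of 10.20, 10.32 and 10.30 with LY2090314, a rise of 1.58 (standard error 0.063, adjusted p = 8.9e-07) or 2.98-fold. *Plcg1*, a phospholipase C that generates calcium signals, had values of 11.16, 11.16 and 11.20 and of 9.13, 9.50 and 8.90, so that it fell by 1.99 log2 units (adjusted p = 1.3e-05, standard error 0.13) to a 3.97-fold lower level. *Zhx3*, which overlaps *Plcg1* on the other strand, was also lower (8.12 and 6.48). *Plcg2*, the phospholipase C of B cells, rose by 0.31 (adjusted p = 0.0042) and *Bcl10* by 0.28 (adjusted p = 0.0046), while *Grb2* (0.10) did not pass and *Dok1* (-0.18) passed only without library 1 (-0.25). The calls of *Vav1* (0.19, lost without library 1, 0.19, or 2, 0.16), *Dok2* (0.31, lost without library 1, 3, 14 A or 15, 0.25 to 0.28) and *Rasa1* (-0.17, lost without any library but 3, -0.19 to -0.14) did not hold without these libraries. Of 4 trafficking genes that have been tied to SLAM receptors, *Pik3c3* fell by 0.20 (adjusted p = 0.0098), and *Becn1* (0.16), *Pik3r4* (0.02) and *Ap2m1* (-0.00) did not pass.

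**Figure D4:**
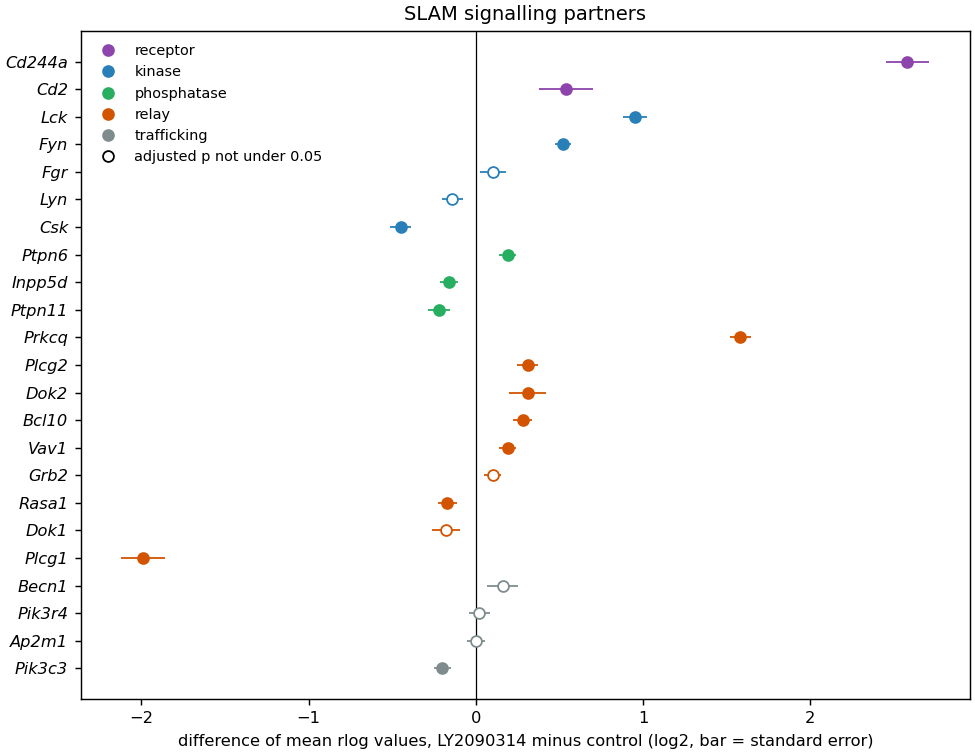
Difference of mean rlog values, LY2090314 minus control (x axis, log2), for the 23 partner genes tested, colored by role, with bars of 1 standard error from limma. Filled circles passed an adjusted p under 0.05, and Cd244a (2.58) and Plcg1 (-1.99) lie at the ends.

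Of the 10 genes, 9 lie on chromosome 1 and *Sh2d1a* lies on the X chromosome (GENCODE vM21 positions, build GRCm38). *Ly9* (171588624 to 171607410, minus strand), *Slamf7* (171632403 to 171653035, minus), *Cd48* (171682009 to 171705258, plus), *Slamf1* (171767127 to 171801184, plus), *Cd84* (171839697 to 171890718, plus) and *Slamf6* (171917515 to 171953170, plus) follow each other in a single cluster. *Cd244a* (171559193 to 171609746, plus) spans *Ly9* on the other strand. *Slamf9* and *Slamf8* lie 558 kb and 664 kb above *Slamf6*, and *Sh2d1b1* lies 1640 kb below it. Along this cluster the log2 differences were 2.58 (*Cd244a*), 0.04 (*Ly9*), 1.32 (*Slamf7*), 0.58 (*Cd48*), -0.01 (*Slamf1*), -0.52 (*Cd84*) and 5.08 (*Slamf6*). Position in the cluster did not sort the genes by direction, since *Cd84*, which was lower, is the next family member to *Slamf6*, which was higher.

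Within 500 kb of a gene of the family on chromosome 1 lay 107 other annotated genes of the table, of which 45 were tested. Of these, 19 rose, 6 fell and 20 did not pass, beside 24.8% of all genes that rose and 25.3% that fell, with a median log2 difference of 0.13 (range -0.77 to 2.58) against 0.01 for all genes. The largest rises were those of *Cd244a*, *Vangl2* and *Fcer1g*. *Cd244a* is also counted among the partners and gives the upper end of both ranges, so the lists are not independent. *Vangl2*, a planar cell polarity gene of noncanonical Wnt signaling and the nearest tested protein-coding gene above *Slamf6* (83 kb), had values of 9.01, 9.30 and 9.17 in control libraries and of 11.15, 11.14 and 10.81 with LY2090314, a rise of 1.87 (standard error 0.11, adjusted p = 5.9e-06). *Fcer1g*, the signaling chain of Fc receptors, rose by 1.59 (adjusted p = 2.5e-05). *Gm37065*, an antisense transcript named here because it overlaps the first part of *Slamf6*, had values of 7.15, 7.05 and 7.36 and of 8.60, 8.67 and 8.88, a rise of 1.53 (standard error 0.11, adjusted p = 1.9e-05). The library kit keeps the strand, but whether strand was used in counting is not stated. Reads of *Slamf6* and *Gm37065*, or of *Cd244a* and *Ly9*, thus cannot be told apart with certainty. The same holds for the partners *Plcg1*, *Dok2* and *Rasa1*, which overlap *Zhx3*, *Xpo7* and *Ccnh* on the other strand.

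The largest falls were those of *Tomm40l* (-0.77, adjusted p = 4.6e-05), a channel gene of mitochondrial import, *Pea15a* (-0.47, adjusted p = 0.0046) and *Dusp23* (-0.44, adjusted p = 0.004). *Gm10521*, the nearest tested protein-coding gene below *Slamf6* (22 kb) and located between it and *Cd84*, differed by -0.33 (adjusted p = 0.11) and passed without library 3 (-0.48) and with quantile normalization (-0.47). Next to *Slamf8*, *Fcrl6* rose by 0.73 (adjusted p = 5.5e-05) and *Cfap45* fell by 0.33 (adjusted p = 0.0092). Next to *Slamf9*, *Pigm* rose by 0.52 (adjusted p = 0.016, lost without library 14 A, 0.47, or 14 B, 0.44) and *Igsf9* fell by 0.31 (adjusted p = 0.037, lost without any library but 14 B, -0.35 to -0.23). Next to *Sh2d1b1*, *Uhmk1* rose by 0.33 (adjusted p = 0.0032) and *Olfml2b* by 1.3 (adjusted p = 3.5e-05). Genes that rose were thus found on either side of the cluster, whereas of the 6 neighbors that fell only *Tomm40l* lay below it.

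**Figure D5:**
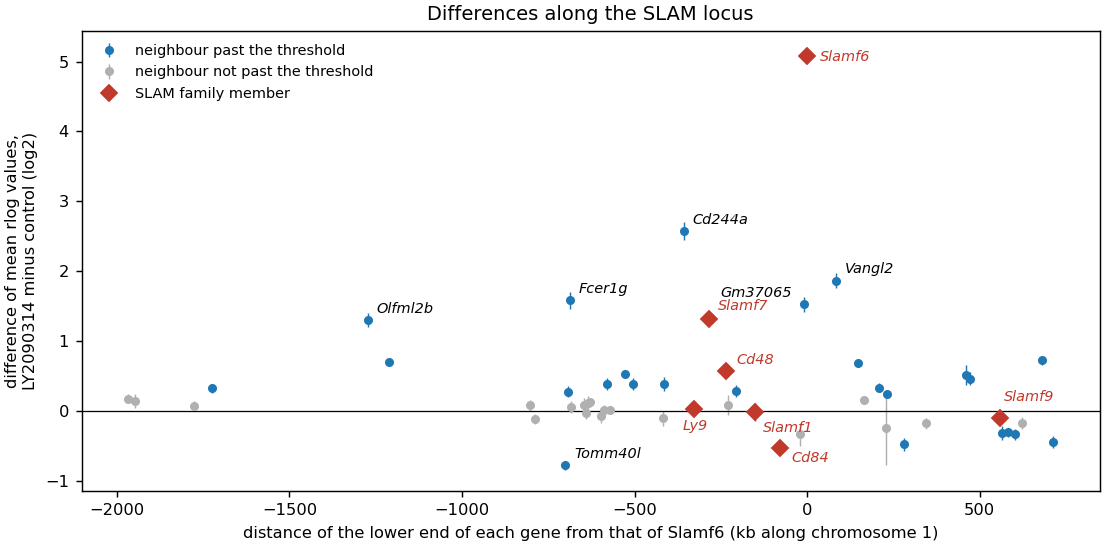
Difference of mean rlog values, LY2090314 minus control (y axis, log2), against the distance of the lower end of each gene from that of Slamf6 in kb along chromosome 1 (x axis), for the 7 receptors tested (red diamonds) and 45 neighbors (circles, blue where the adjusted p was under 0.05), with bars of 1 standard error. Slamf6 (5.08) stands above Cd244a (2.58), Vangl2 (1.87) and Slamf7 (1.32), and Cd84 (-0.52) lies below 0 at a distance of 78 kb from Slamf6.

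LY2090314 raises β-catenin, which acts through TCF factors in canonical Wnt signaling, whereas the study reports that it pairs with Ikaros factors in B cell leukemia. The promoters were therefore searched on both strands for the TCF core CTTTGA and for TGGGAA, called the Ikaros core here. The study gives this core as the shorter GGGAA, which was not searched. A window without TGGGAA can therefore still hold the core of the study. The TCF core was searched only as CTTTGA, and other spellings of it were not searched. The windows are 250 bases before to 50 bases after the RefSeq gene start (GRCm38.p6), and the motifs do not overlap each other in them. Of the 10 genes, 8 had an entry, and *Ly9* and *Sh2d1a* had none. RefSeq and GENCODE starts can differ. The *Slamf7* window (171648950 to 171649249) lies inside the GENCODE gene given above, and the *Slamf6* window ends just before the GENCODE start. The TCF core was found in 5257 of 32851 promoters of this length (16%) and the Ikaros core in 8397 (25.6%). *Cd48* and *Slamf9* each held 1 TCF core, 168 and 146 bases before the start, and *Slamf1* held 1 Ikaros core 185 bases before it. *Slamf6*, *Slamf7*, *Slamf8*, *Cd84* and *Sh2d1b1* held neither in this window. Among the related genes, *Cd244a* held 2 Ikaros cores (72 and 203 bases before the start) and *Sh2d1b2* held neither. The promoters of the receptors with the largest differences, *Slamf6* and *Cd244a*, and of *Cd48*, the ligand of CD244, are shown with matches in capitals.
Slamf6 promoter, chr1:171917212-171917511, plus strand: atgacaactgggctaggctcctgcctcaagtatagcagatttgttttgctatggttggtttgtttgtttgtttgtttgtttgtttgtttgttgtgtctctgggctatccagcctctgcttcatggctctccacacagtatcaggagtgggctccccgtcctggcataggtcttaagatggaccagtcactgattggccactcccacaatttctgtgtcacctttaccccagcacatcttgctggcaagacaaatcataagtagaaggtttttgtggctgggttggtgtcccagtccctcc
Cd244a promoter, chr1:171558943-171559242, plus strand: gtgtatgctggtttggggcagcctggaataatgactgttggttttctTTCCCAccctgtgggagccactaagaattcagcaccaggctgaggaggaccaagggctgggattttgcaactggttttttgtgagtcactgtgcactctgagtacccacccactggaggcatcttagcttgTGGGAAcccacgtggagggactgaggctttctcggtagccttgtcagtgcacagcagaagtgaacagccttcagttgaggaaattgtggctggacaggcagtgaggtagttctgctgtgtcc
Cd48 promoter, chr1:171681742-171682041, plus strand: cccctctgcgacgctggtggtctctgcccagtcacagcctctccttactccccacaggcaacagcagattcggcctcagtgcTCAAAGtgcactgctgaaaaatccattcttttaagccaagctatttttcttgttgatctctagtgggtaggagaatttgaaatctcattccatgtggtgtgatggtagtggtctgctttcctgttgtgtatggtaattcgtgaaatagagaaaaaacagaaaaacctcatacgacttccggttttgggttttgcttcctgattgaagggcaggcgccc
A match describes these letters in this window and does not show that a factor binds there.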

How the data were processed

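Stranded libraries of polyadenylated RNA were sequenced as paired ends. Per the study's methods, transcripts were quantified with Salmon, and reads were aligned with STAR to GRCm38 (GENCODE vM24). The authors used DESeq2 1.30.1 for their own comparisons. The authors deposited 1 table of log2 values, named as rlog values, for 41444 genes. Its options are not given in the sources used here, and the depth per library is unknown. Of 12 columns, 6 were matched to a group by name. The other 6, whose names combine Cre and LY, were not used.

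Genes with a mean of at least 3 over the 6 libraries (11536) were fitted with limma 3.58.1 in R 4.3.3 (mean-variance trend, Benjamini-Hochberg adjustment over all of them, threshold 0.05). A count test could not be run on rlog values. The study calls the samples biological replicates from mice, while the column names give 2 of the treated libraries the same number, so p-values may cover technical spread in part. The members, the 24 partners, the window of 500 kb, the marker lists and the rule for named genes were chosen with earlier results of these data known. Named were all members, fixed partners, partners with an absolute log2 difference of at least 1, nearest neighbors, the 3 largest neighbor rises and falls, 5 genes most like *Slamf6*, and *Axin2* and *Nkd1*. The other partners and markers were named after their values were seen. Symbols matched 41157 genes. Some markers of the lists are not reported here. Summed marker levels are log2 of summed linear values, and markers whose rlog value was not positive in a library were left out of its sum. The fit was tested on simulated data.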

Additional observations from a re-analysis of the deposited data

How the results depend on the processing

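The alternatives were a fit lacking the trend, a mean of at least 5 or of any size, median centring, quantile normalization, leaving out each library, averaging libraries 14 A and 14 B, a threshold of 0.01 and a required log2 difference. The values of the family carry no test, since the same contrast chose it, and their side of the threshold is no support for them under any setting. *Slamf6*, *Slamf7*, *Cd48* and *Cd84* were on the same side under all of these but the last, where *Cd48* and *Cd84* were not. A required log2 difference of at least 1 left 2 of the 4 (0 lower), 3 partners (2 higher, 1 lower), 5 neighbors (5 higher, 0 lower) and 693 of all genes (478 higher, 215 lower). A threshold of 0.01 left 9 partners (6 higher, 3 lower), and a limit of 5 on the mean left 3 lower neighbors, since fewer genes were tested. Without a lower limit on the mean, 5 of 9 genes of the family passed, including a gene below the limit, beside 5356 of 19658 genes in all. Calls lost in settings other than leaving out a library were those of *Rasa1* (no trend), *Cd2*, *Ptpn11*, *Dok2*, *Rasa1*, *Pigm*, *Igsf9* and *Jchain* (no lower limit), *Dok2* (limit of 5, either scaling), *Jchain* (quantile normalization), and *Ptpn6*, *Inpp5d*, *Dok2*, *Rasa1*, *Pigm* and *Igsf9* (libraries averaged). Calls gained were those of *Gm10521* (quantile normalization) and *Cd79a* (limit of 5, quantile normalization, without library 15). Without each library in turn, 10 to 15 partners passed (6 to 9 higher, 3 to 6 lower), beside 4741 to 6225 of all genes. Nothing is read from these counts of partners or from that at 0.01. Differences near 0 changed sign without passing the threshold. That of *Pik3r4* was -0.00353 with median centring, -0.00653 with quantile normalization and -0.0174 to 0.057 without each library, and that of *Slamf1* was -0.13 to 0.10 without each library and 0.0161 with the average. *Ap2m1* ranged from -0.0429 to 0.025 without each library, with 0.02 for the average, and *Ly9* from -0.00528 to 0.0826. The cause was not tested. No paired analysis was possible because the deposited columns and the titles share no numbering. Depth is unknown, so what it limits could not be set, and *Slamf8*, *Sh2d1a* and *Sh2d1b1* were too low to test.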
